A study of Mus musculus with 8 samples.

Results

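H3K27-me3 regions that were called in both virus groups, were narrow, and lay far from the start of any protein-coding gene are described here. The whole AAV-Cre list held 59267 called regions, of which 58951 lay on chromosomes 1 to 19. Of these, 57353 were under 5000 bp wide. Of the narrow regions, 33703 lay over 15 kb from every start site in the basic set of GENCODE protein-coding transcripts. The regions described are the 5991 of those 33703 that shared at least 1 base with a region of the AAV-GFP list. They covered 10.25 Mb, or 0.416% of the autosomes. They were chosen by the peak calls and widths themselves, so the overlap, the width and the distance are descriptions of the choice. Over the whole AAV-Cre list 24.2% of regions shared bases with an AAV-GFP region, and among narrow regions over 15 kb from start sites the share was 17.8%, which is the share the choice defines.

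The livers came from male C57BL/6 mice, and every mouse of both groups carried the floxed allele of JMJD3. At 8 weeks of age they received either AAV-TBG-Cre, in which the hepatocyte promoter TBG drives the Cre recombinase that downregulates JMJD3, or the control AAV-GFP. Livers were taken 12 weeks later, after a 16 h fast, from 2 mice per group, each with an H3K27-me3 library and an input library (8 libraries). The tissue is labelled as primary liver cells and the study's methods describe liver chromatin, so cells that TBG does not target could have contributed, and a change in hepatocytes cannot be told apart from a change in the mix of cells. The deposited data are 1 peak list per group made from both mice, so no value per mouse exists, no test between the groups was possible, and the 95% intervals given for shares are Wilson intervals that cover counting error only. Read depth is not given in the files.

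H3K27-me3 is trimethylation of lysine 27 of histone H3. It is laid down by Polycomb repressive complex 2 and is known for keeping developmental and lineage-restricted genes silent. The demethylase JMJD3, the product of Kdm6b, takes methyl groups off that residue. The mark is usually found over CpG-rich start sites and spreads from them as wide domains, whereas the regions described here are the short called stretches away from such starts.

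Sequence at 4 of the strongest calls and at 1 weak, remote call is shown to give examples of CpG-rich and CpG-poor regions. Each window is 250 bases on the AAV-Cre summit, on the plus strand of mm10 (RefSeq GRCm38.p6), in lower case with each CpG dinucleotide in capitals. The strongest region, near Cited4, held 28 CpGs in its window and had 74.4% GC. The Col4a2 window held 18 CpGs and the Robo3 window 31. The Cyp3a41a window belonged to the fourth strongest region and held only 5 CpGs at 52.8% GC. The Acvr2a window held 2 CpGs and is shown for its distance, 1726242 bp from the closest start site. Its AAV-Cre call was weak, with −log10 p of 3, −log10 q of 1.24 and a rank of 92.1% in the list.
Cited4 window, chr4:120649681-120649930: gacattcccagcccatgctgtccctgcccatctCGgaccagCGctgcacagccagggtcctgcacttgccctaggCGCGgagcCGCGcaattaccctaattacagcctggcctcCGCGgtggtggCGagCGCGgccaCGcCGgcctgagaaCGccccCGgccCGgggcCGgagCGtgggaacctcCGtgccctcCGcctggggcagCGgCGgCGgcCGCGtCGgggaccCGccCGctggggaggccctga
Col4a2 window, chr8:11188136-11188385: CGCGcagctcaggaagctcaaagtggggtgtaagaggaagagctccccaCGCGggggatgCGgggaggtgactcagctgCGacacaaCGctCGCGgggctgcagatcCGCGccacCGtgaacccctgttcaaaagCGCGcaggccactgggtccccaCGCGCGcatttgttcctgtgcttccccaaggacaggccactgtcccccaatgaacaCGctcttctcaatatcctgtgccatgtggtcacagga
Robo3 window, chr9:37460398-37460647: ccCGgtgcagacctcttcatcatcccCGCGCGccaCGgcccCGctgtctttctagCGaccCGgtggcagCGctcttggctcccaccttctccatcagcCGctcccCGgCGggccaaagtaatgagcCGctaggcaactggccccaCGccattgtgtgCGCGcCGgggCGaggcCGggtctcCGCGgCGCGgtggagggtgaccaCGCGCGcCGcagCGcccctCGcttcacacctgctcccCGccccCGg
Cyp3a41a window, chr5:145654501-145654750: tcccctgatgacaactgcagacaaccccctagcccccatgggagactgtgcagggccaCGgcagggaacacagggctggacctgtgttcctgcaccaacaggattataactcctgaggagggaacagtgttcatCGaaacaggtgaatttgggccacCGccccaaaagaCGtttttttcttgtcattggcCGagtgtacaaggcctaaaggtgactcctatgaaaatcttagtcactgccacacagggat
Acvr2a window, chr2:47087092-47087341: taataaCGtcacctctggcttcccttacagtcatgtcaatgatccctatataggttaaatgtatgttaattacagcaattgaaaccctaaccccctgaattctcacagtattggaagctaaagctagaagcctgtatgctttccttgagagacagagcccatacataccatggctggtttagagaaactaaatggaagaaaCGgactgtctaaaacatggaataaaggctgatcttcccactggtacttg

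The Unc45b window is shown because its region had the most CpGs per length of all 5991, 15.1 per 100 bases. This region, chr11:82930196-82932605, lies in an intron of Unc45b, which encodes a chaperone of muscle myosin, 18943 bp from the closest start site. Its window is a local repeat in which the letters CGCTCGCT recur 13 times, yet none of the region was soft-masked as repeat. Inside it lay 2 AAV-GFP regions that covered 67.2% of its bases. The next most CpG-dense regions were 499 bp near Zfp991 with 14.2 CpGs per 100 bases and 385 bp near Gm21863 with 13.2, the former over the lincRNA C230088H06Rik and the latter over Gm5953, a gene whose type is still to be established in the annotation.
Unc45b window, chr11:82931134-82931383: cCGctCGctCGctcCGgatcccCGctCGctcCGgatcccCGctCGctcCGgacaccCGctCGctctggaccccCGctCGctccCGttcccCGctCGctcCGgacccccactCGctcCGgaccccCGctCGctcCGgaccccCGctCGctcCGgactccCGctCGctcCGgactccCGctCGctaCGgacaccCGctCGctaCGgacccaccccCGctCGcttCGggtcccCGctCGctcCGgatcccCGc

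The regions were mostly intergenic. Of the 5991, 4377 lay between protein-coding genes (73.1%, 95% interval 71.9 to 74.2), 1162 lay in introns only (19.4%) and 452 touched an exon (7.54%). Positions refer to basic transcripts, and some regions called between genes overlap the full annotated extent of a protein-coding gene. Untranslated sequence was touched by 145 regions. A lncRNA gene was overlapped by 901 regions (15%, 14.2 to 16), and 336 lay within 1 kb of a lncRNA start site (5.61%). The AAV-Cre-only narrow regions over 15 kb from start sites, 27712 in number, were between genes in 68.9% of cases and over a lncRNA gene in 12.3%. The distance to the closest protein-coding start site had a median of 53441 bp and reached 2240190 bp in a region upstream of Tenm3 that lay over the lincRNA C130073E24Rik, and 3144 regions lay over 50 kb away (52.5%). It was close to that of the AAV-Cre-only regions, whose median was 52542 bp. Regions on the upstream side of the closest start site made up 49.3%.

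**Figure D1:**
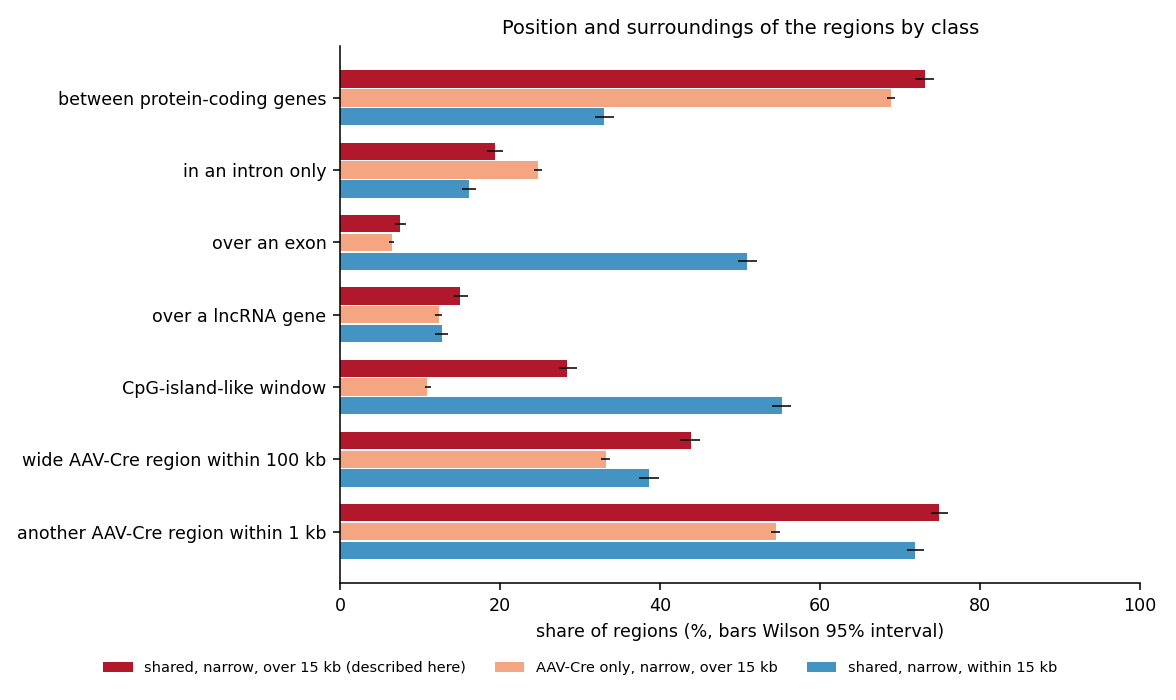
Horizontal bars give the share of regions (%) with each property for the 5991 regions described (red), the 27712 AAV-Cre-only narrow regions over 15 kb from start sites (orange) and the 6665 shared narrow regions within 15 kb (blue), with Wilson 95% intervals. The regions described had a CpG-island-like window in 28.4%, between 10.9% and 55.2% in the other classes.

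CpG content lay between that of the compared classes. A CpG-island-like window, meaning 200 bp with at least 50% GC and an observed over expected CpG ratio of at least 0.6, was present in 1703 regions (28.4%, 27.3 to 29.6). The share was 10.9% (10.6 to 11.3) among AAV-Cre-only narrow regions at the same distance and 55.2% (54 to 56.3) among shared narrow regions within 15 kb of start sites. With the stricter definition of 500 bp, 55% GC and a ratio of 0.65 the shares were 6.19%, 0.458% and 34.2% in the same order. Wider regions hold more windows, and the median widths were 1429, 626 and 1909 bp. In a window of fixed size, the summit with 150 bases on each side, the mean CpG count was 6.04 in the regions described, 4.35 in the AAV-Cre-only class and 13 near start sites, with medians of 4, 4 and 8. Median GC over the whole region was 47.3%, 49.7% and 51.2%, lowest in the regions described. In the summit window, median GC was 50.83%, 51.16% and 57.14%, and mean GC was 51.64%, 51.12% and 57.92%. The lower GC over whole regions was therefore not a clear difference at the summit from the AAV-Cre-only class. The classes also differed in call strength, with median −log10 p of 8.114, 4.245 and 12.25 in the same order. In the weakest of 5 groups of the regions described (−log10 p 2.03 to 5.05), the island share was 9.1%. The mean summit CpG count of that group was 3.84. These differences between classes were not tested, because regions of 1 list are not replicates.

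The letters CGCG, which read the same on both strands, were present in the summit window of 829 regions (13.8%, 13 to 14.7). That compares with 6.64% of AAV-Cre-only narrow far regions, 39% of shared regions near start sites and 13.7% of all AAV-Cre regions. With q-values of 0.01 or lower in both lists the share was 24.5%, with 50% AAV-GFP coverage required 23.1% and with AAV-GFP peaks of 300 bp or more 21.2%. Other settings lowered it, to 10.6% with start sites of all annotated genes and 12.1% after merging peaks within 1 kb. It was 12.4% under 3000 bp, 12.6% beyond 50 kb and 12.7% with all transcripts of protein-coding genes. The share moved past its interval in 11 of 15 alternatives, and the whole-list 13.7% was not recomputed under them. The E-box CAGCTG was present in 20.9% of windows and in 21.5% over the whole list. GAGAGAGA or TCTCTCTC was present in 4.67% against 4.82%, and the forkhead letters TGTTTAC or GTAAACA in 3.84% against 3.22%. The HNF4 letters CAAAGTCCA or TGGACTTTG were found in 23 windows (0.384%, against 0.363% over the whole list) and the C/EBP letters TTGCGCAA in 1 (0.0167% against 0.0456%). DR1, which is AGGTCA repeated with 1 base between and is bound by PPAR with RXR, was found in 3 (0.0501% against 0.0557%). No other motif searched contains the letters CGCG, and a match is only a description of the letters.

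The 10 strongest AAV-Cre calls had −log10 p from 57.5 to 73.6 and fold enrichment over local background from 10.4 to 14.3. The strongest, chr4:120647297-120651478, lay 15094 bp upstream of Cited4, which encodes a partner of the coactivators CBP and p300, and over the lincRNA Gm45579. Its −log10 p was 73.6 and its fold 14.3, and 2 AAV-GFP regions covered 28.8% of it. The second lay 123513 bp upstream of Col4a2, a basement membrane collagen gene, with a fold of 13.9 and 53.5% covered by 3 AAV-GFP regions. Other regions among the 10 lay near Kdm7a, a histone demethylase gene, Scrt2, which encodes a Snail-family repressor, and Robo3, an axon guidance receptor gene. The Jph2 region touched an exon, and the Rapgef5 region lay in an intron. Of the 10, 9 held a CpG-island-like window, and the one without was the Cyp3a41a region, chr5:145654195-145655435, at a fold of 13.4 and −log10 p of 66.3. All 10 had an AAV-GFP partner within the strongest 6.93% of the AAV-GFP list.

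Most AAV-GFP calls inside the regions were short. The 5991 regions held parts of 9070 AAV-GFP regions, 26.2% of that list. A single AAV-GFP region was inside 4095 of them, 2 were inside 1166 and 3 or more inside 730, with at most 7. The median share of a region covered by AAV-GFP calls was 22.7%, and 637 regions were covered over 50% (10.6%). The median width of the strongest AAV-GFP partner was 213 bp against 1429 bp for the AAV-Cre region. The lists were themselves unlike: AAV-GFP regions had a median width of 231 bp and started at 120 bp, and AAV-Cre regions had a median of 753 bp and started at 300 bp. The difference in width was therefore no measure of the groups, and folds were not compared between them. A q-value no higher than 0.05 was met by the AAV-Cre call of 97.2% of regions and by the strongest AAV-GFP partner of 43.3%, against 46.8% over the whole AAV-GFP list.

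Strong AAV-Cre calls tended to hold strong AAV-GFP calls. The Spearman correlation between the rank in the AAV-Cre list and the rank of the strongest AAV-GFP partner in its own list was 0.513 across the 5991 regions, as a description. It was 0.687 across the 6665 shared regions within 15 kb of start sites. The correlation of AAV-Cre rank with width was −0.662, and that of width with the number of AAV-GFP regions inside was 0.55. The partner is the strongest of all AAV-GFP regions inside, so wider regions had more calls to take it from. The part of this in the 0.513 was not tested. The median distance between the AAV-Cre and AAV-GFP summits was 177 bp, and the AAV-Cre summit fell inside the AAV-GFP region in 40.3% of cases.

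**Figure D2:**
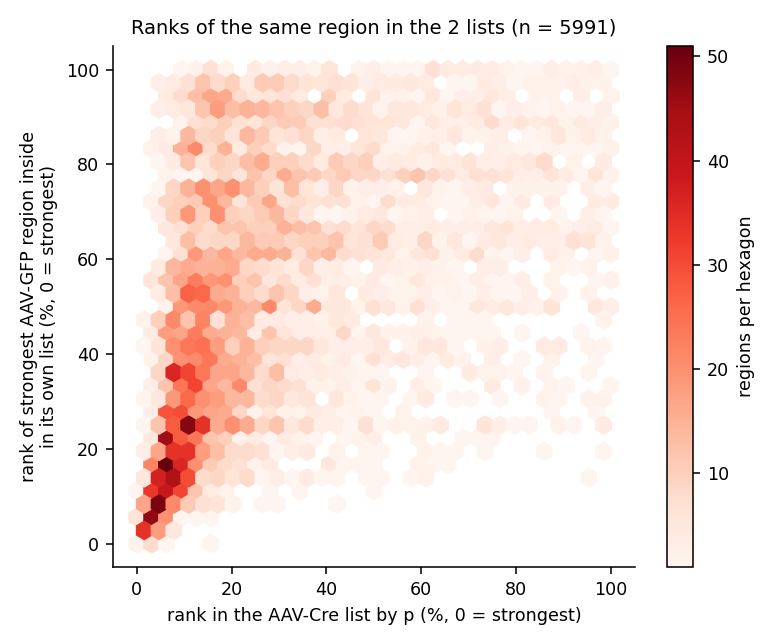
Each hexagon counts regions by their rank by p in the AAV-Cre list (x axis, %) and the rank of the strongest AAV-GFP region inside them in its own list (y axis, %), with 0 as strongest, for all 5991 regions. Counts are densest at the lower left, while AAV-GFP ranks spread over the whole axis where the AAV-Cre rank is over 20%.

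Divided into 5 groups of like size by the AAV-Cre p, the regions differed in several features together. The median width was 2619 bp in the strongest group and 671.5 bp in the weakest. A CpG-island-like window was present in 59.5% of the strongest group, then 33.5%, 24%, 15.9% and 9.1%. More than 1 AAV-GFP region was present in 64.3% of the strongest group and 5.68% of the weakest. The mean CpG count in the summit window, which does not depend on width, was 11.2 in the strongest group and 3.84 in the weakest. Position did not follow the same order: 71.8% of the strongest and 73.9% of the weakest group lay between genes.

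**Figure D3:**
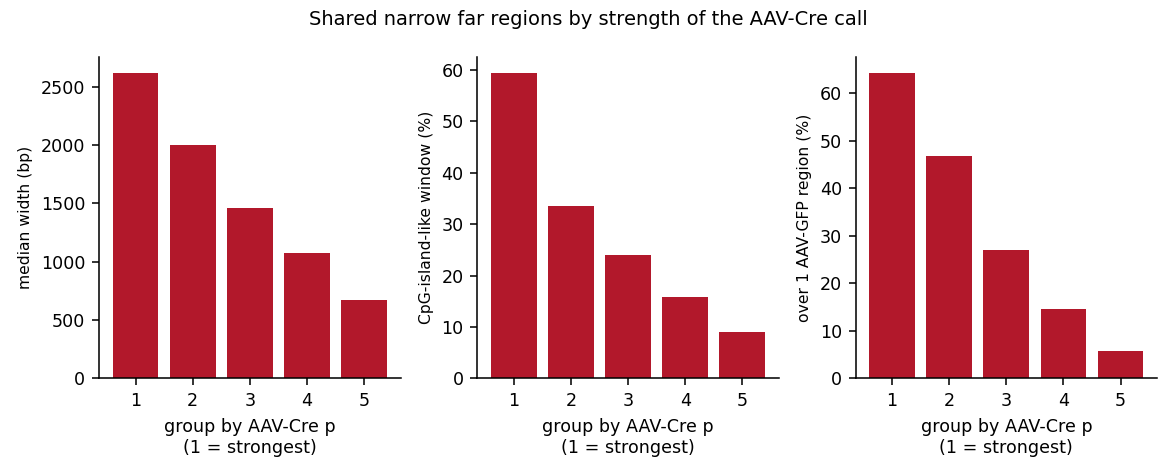
Bars give the median width (bp), the share with a CpG-island-like window (%) and the share holding more than 1 AAV-GFP region (%) in 5 groups of the 5991 regions by AAV-Cre p, with 1 as the strongest. All 3 were lower in each weaker group, the island share from 59.5% to 9.1%.

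Many of the regions lay close to one another, as did those of the other classes. Another AAV-Cre region lay within 1 kb of 74.9% of them (54.5% for the AAV-Cre-only class), at a median gap of 424 bp. Another of the 5991 lay within 10 kb of 62.8%, whereas another region of the same class lay that close to 83% of the AAV-Cre-only regions and 58.1% of the shared regions near start sites. The 62.8% became 28.8% after peaks within 1 kb were merged, 33.3% with 50% AAV-GFP coverage required and 41.8% with q-values of 0.01 or lower in both lists. A wide AAV-Cre region, of 5000 bp or more, lay within 100 kb of 43.8% (33.2% for the AAV-Cre-only class). Joined across gaps of up to 10 kb, they formed 3286 chains, of which 2227 held a single region and 210 held 5 or more, with 1676 regions in all. The longest held 23 regions. One of these spanned 52.66 kb between Sult2a5 and Sult2a2 on chromosome 7, and 56.2% of that span was called. Another of 23 regions spanned 58.16 kb on chromosome 8, 1552103 bp or more from the start site of Efnb2, an Eph receptor ligand gene and the closest protein-coding gene. Chains of 18 or 19 lay near Cyp2c69, Il7, Mllt3 and Cyp3a41a. Density was highest on chromosome 19 at 5 regions per Mb and lowest on chromosome 14 at 1.29. All narrow AAV-Cre regions over 15 kb from start sites, shared or not, were also uneven. They numbered 1332 over the 61.43 Mb of chromosome 19 and 994 over the 124.9 Mb of chromosome 14. Of these, 23% and 16.2% were shared.

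The closest protein-coding genes numbered 2241. Of these, 1185 had a single region, and 96 had 10 or more and together held 1503 regions (25.1%). The most regions, 46, were closest to Creb5, a gene of the CREB transcription factor family, and 43 of them lay in introns. They lay 15235 to 129385 bp from a start site, had −log10 p from 2.62 to 19.7, and were covered by AAV-GFP calls to a median of 29.5%. Klf4, a zinc-finger transcription factor gene, had 41, of which 35 were upstream and 19 over a lncRNA gene. Auts2, a gene of a Polycomb repressive complex 1 variant and of brain development, had 40, of which 36 were downstream. Bmp2, a ligand of the TGF-beta superfamily, had 40, all between genes. Sall1, a zinc-finger transcription factor gene of kidney development, had 39, all upstream, from 96197 to 581191 bp away. Mllt3 had 30, the homeobox gene Irx3 28 and Efnb2 27. Creb5 was also the closest gene of 137 AAV-Cre regions of any width, distance and sharing, and Sall1 of 177. These counts were 155 for Klf4, 130 for Auts2, 108 for Bmp2, 102 for Irx3, 77 for Mllt3 and 42 for Efnb2.

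**Figure D4:**
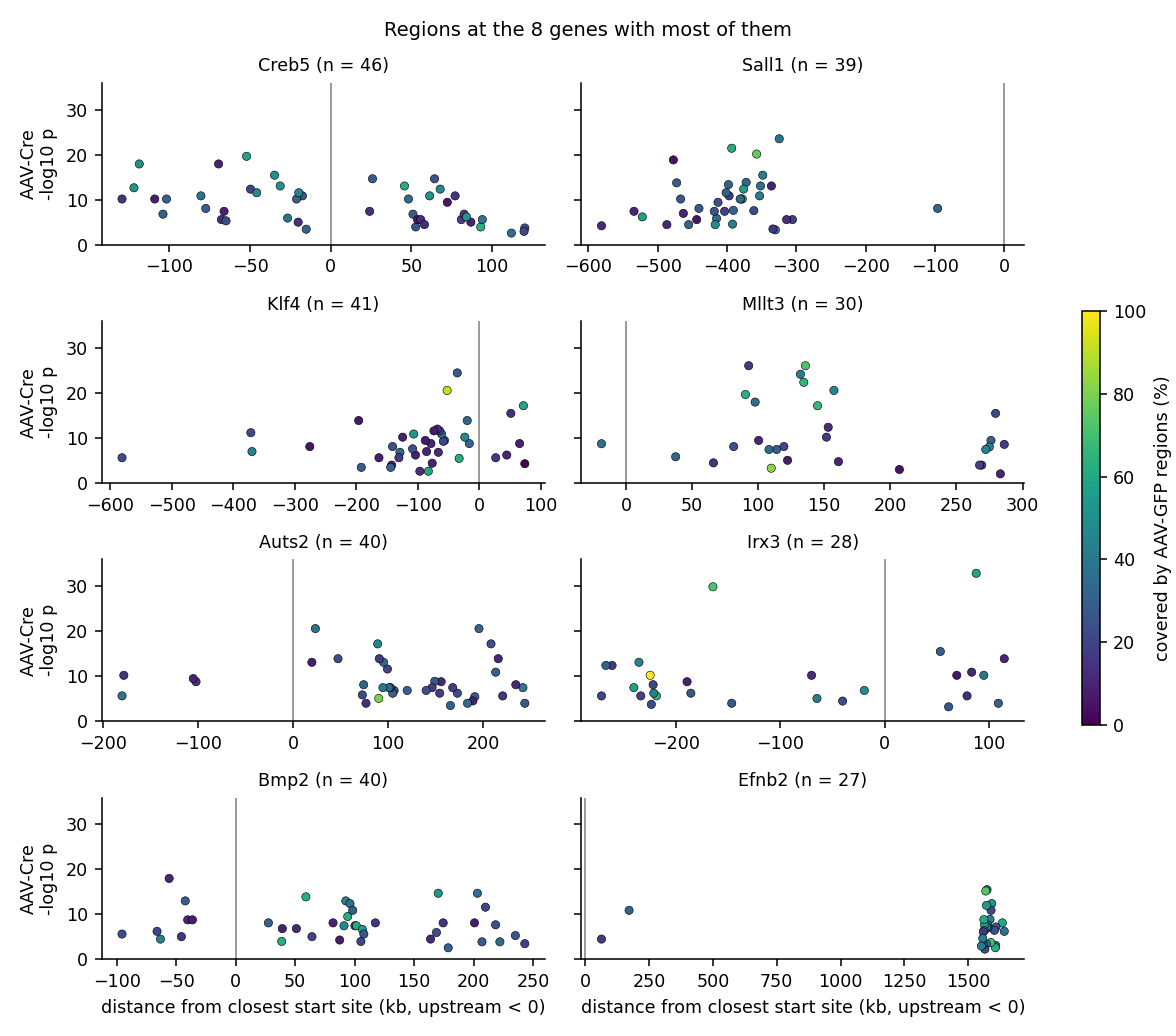
Each point is a region, placed by its distance from the closest start site of the named gene (kb, negative upstream) and its AAV-Cre −log10 p, and coloured by the share covered by AAV-GFP regions (%), for the 8 genes with most regions. The 39 Sall1 regions lay upstream only, and 25 of the Efnb2 regions lay 1552103 bp or more downstream.

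Genes of development were near many of the regions, in shares close to those of the compared classes. Homeobox factors were closest to 324 regions (5.41%, 4.86 to 6.01), spread over 85 of 179 genes, against 4.11% (3.89 to 4.35) of AAV-Cre-only narrow far regions and 4.19% of shared regions near start sites. Irx3 had 28, Pax1 15, Nkx6-1 14 and Pax2 12. Other lineage transcription factors were closest to 445 (7.43%), against 6.13% and 5.49%, with Gli2, a Hedgehog effector gene, at 14 and Runx1 at 11. Signalling ligands and antagonists were closest to 144 regions (2.4%, against 1.75% of the AAV-Cre-only class and 1.61% near start sites), of which Bmp2 took 40, Inhbb 15 and Wnt4 14. Axon guidance and neuronal adhesion genes had 165 (2.75%, against 2.37% and 1.91%) and ion channels and neurotransmitter receptors 104 (1.74%, against 2.06% and 2.76%). Counting regions with a listed start site within 100 kb, the share near start sites was the highest on each of these lists. The homeobox shares were then 5.01%, 4.15% and 5.57% in the same order, and those of other lineage factors 5.91%, 4.67% and 8.04%. Signalling genes had 2.04%, 1.7% and 2.87%, axon guidance genes 1.49%, 1.23% and 2.52%, and channels and receptors 1.99%, 2.13% and 4.34%. As a check on the label, 175 of 179 homeobox genes had an AAV-Cre region within 15 kb of a start site, and 166 had an AAV-GFP region there. Of 77 hepatocyte genes, 5 had an AAV-Cre and 2 an AAV-GFP region. Of 37 markers of other liver cells, 25 had an AAV-Cre and 17 an AAV-GFP region, and the part of the cell mix in the regions described was not tested.

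Listed hepatocyte, autophagy and lysosome, and fatty acid genes were the closest gene of few regions in each class. The Sult2a, Cyp3a, Cyp2c and Hao2 genes with regions described below were not counted in these lists. The 77 listed hepatocyte genes were closest to none of the 5991 regions (0%, up to 0.0641%). They were closest to 39 of the AAV-Cre-only narrow far regions (0.141%) and to none of the shared regions near start sites. Within 100 kb of a start site of these genes lay 13 of the 5991 (0.217%), against 0.419% and 0.84% in those classes. Autophagy and lysosome genes were closest to 23 (0.384%, 0.256 to 0.575), over 7 of 73 genes, against 0.242% of the AAV-Cre-only class and 0.06% near start sites. The order was reversed for regions within 100 kb of such a start site, at 0.517%, 0.595% and 1.74%. Of the 23 regions, 10 were assigned to Pik3c3, the catalytic subunit of the class III PI3-kinase, but lay 470646 to 1564139 bp from it. Mitf had 4, Vps41 3 and Stx17 2. The strongest of these regions, at Mitf, had −log10 p of 13.9 and 9.41% AAV-GFP coverage. Fatty acid oxidation and lipolysis genes had 10 (0.167%, against 0.152% and 0.03%), while the shares within 100 kb were 0.134%, 0.26% and 1.1%. Abhd5 had 4, Acadl 2, and Acaa2 and Bdh1 1 each. Kdm6b, the JMJD3 gene itself and not a fatty acid gene, was counted in that list and in these shares. It had 2, at 51018 and 57781 bp. The Bdh1 region was the strongest of the 10, with −log10 p of 31.9, a fold of 8.3 and 61.9% coverage, but lay 114540 bp away. Markers of other liver cells were closest to 24 regions (0.401%, against 0.538% and 0.285%), among them Kdr with 6 and Col1a1 with 4. Olfactory and vomeronasal receptor genes had 21 (0.351%, against 0.231% and 0.51%), and zinc-finger genes named Zfp or Zscan 103 (1.72%, against 1.21% and 1.11%).

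Genes known to be expressed more in female than in male mouse liver were closest to 153 regions (2.55%, 2.18 to 2.98), over 18 of 28 genes. All mice were male. The list was drawn up from general knowledge after the chains at Sult2a, Cyp2c and Cyp3a genes had been seen, so the count is a description. The same genes were closest to 222 AAV-Cre-only narrow far regions (0.801%, 0.703 to 0.913) and 94 shared regions near start sites (1.41%). A list of 25 genes known to be higher in male liver, drawn up at the same time, was closest to 2 regions (0.0334%, against 0.0325% of the AAV-Cre-only class and 0.015% near start sites), 1 at Mup1 and 1 at Moxd1. The sulfotransferase genes Sult2a1, Sult2a5, Sult2a2, Sult2a4 and Sult2a6, whose enzymes act on steroids and bile acids, had 57 regions across 585.2 kb of chromosome 7. The Cyp3a genes Cyp3a16, Cyp3a41a, Cyp3a44 and Cyp3a41b had 43 across 413.9 kb of chromosome 5, the Cyp2c genes 22 across 462.3 kb of chromosome 19, and Hao2, a hydroxy-acid oxidase gene, 22 across 120.4 kb of chromosome 3. These loci held 144 of the 153 regions (94.1%). The repressor gene Cux2 had 3, the strongest with −log10 p of 39.1.

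The regions at genes higher in female liver were CpG-poor. Their median GC was 43%, their median CpG count 0.543 per 100 bases and 7 of 153 had a CpG-island-like window (4.58%), against 1.278 per 100 bases and 28.4% over all 5991. Their median −log10 p, 8.11, and AAV-GFP coverage, 26.5%, were near the medians over all regions (8.114 and 22.7%). Soft-masked repeat made up a median of 42.6% of these regions against 15.5% over all 5991. The Sult2a, Cyp3a and Cyp2c genes are families of related copies, so the placement of reads between copies that are alike is uncertain. Hao2, with 22 regions, is outside these families, and its regions had a median soft-masked share of 22.5%. The soft-masked share does not measure how alike gene copies are, and the part of read placement in these counts was not tested. Counting only regions under 50% soft-masked, the share at genes higher in female liver was 1.65%. Over 50 kb from start sites it was 0.859%, and with peaks within 1 kb merged 1.2%. It was 0.682% with start sites of all annotated genes and 3.92% with 50% AAV-GFP coverage required. The compared classes were not recomputed under these settings, so a difference from them cannot be read from these shares.

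**Figure D5:**
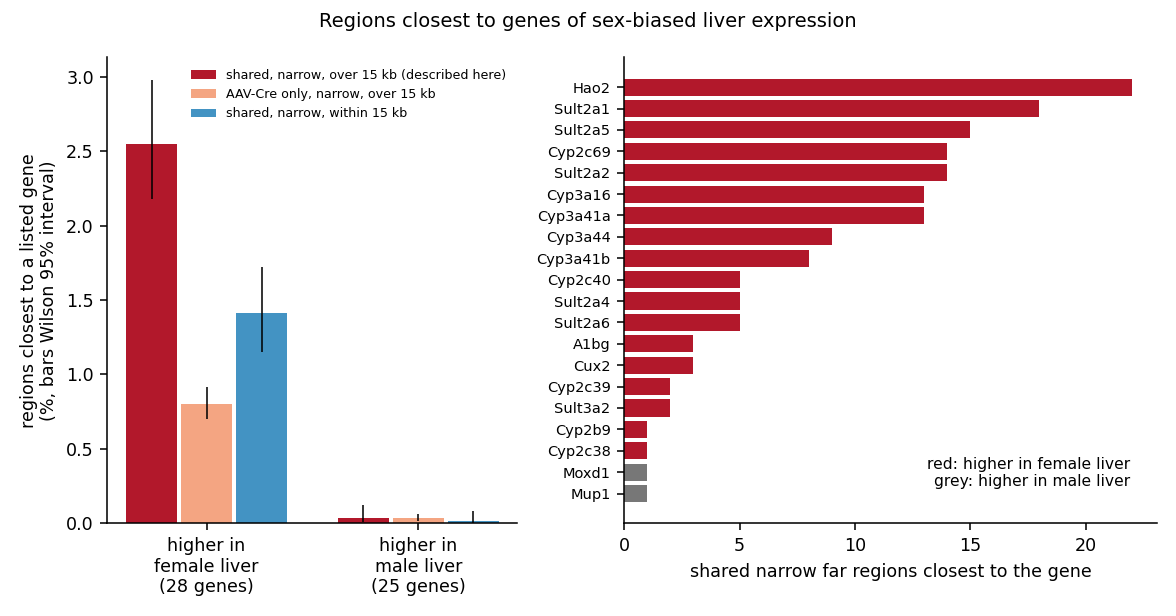
Left, the share of regions (%) whose closest gene is known to be higher in female or in male mouse liver, in the 3 classes, with Wilson 95% intervals. Right, the number of the 5991 regions closest to each listed gene, from 22 at Hao2 to 1, with female-higher genes in red and male-higher genes in grey.

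MicroRNA genes were overlapped by 18 regions (0.3%, 0.19 to 0.474), which lay over 22 annotated miRNA genes, 14 of them with a mature sequence in RefSeq (GRCm38.p6). The share was 0.0866% in the AAV-Cre-only class and 0.6% near start sites. Wider regions can overlap more genes, and the median widths were 1429, 626 and 1909 bp in that order. The shares were not adjusted for width. Mature sequences are shown for miRNAs of neural and developmental expression, 5′ to 3′ with the seed, bases 2 to 8, in capitals.
miR-9-5p: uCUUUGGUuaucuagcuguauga
miR-9-3p: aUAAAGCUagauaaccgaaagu
miR-128-3p: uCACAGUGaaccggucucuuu
miR-129-5p: cUUUUUGCggucugggcuugc
miR-199b-3p: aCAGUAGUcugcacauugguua
miR-675-3p: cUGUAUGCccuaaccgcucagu
miR-675-5p: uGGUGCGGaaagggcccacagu

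The Mir9-2 region, chr13:83736954-83740165, had −log10 p of 30.9 and a fold of 8.17, held 6 AAV-GFP regions covering 67.7% of it, and lay 161277 bp from Mef2c. Mature miR-129-5p, with the seed UUUUUGC, comes from Mir129-1 and Mir129-2, and both genes lay under a region: chr2:94239110-94242683, with a fold of 5.08, and chr6:29020052-29024267, with a fold of 4.69. The summit of chr9:112116859-112119843 fell within the hairpin of Mir128-2, in Arpp21. The region over Mir675 and its imprinted host lincRNA H19, chr7:142575538-142580157, had a fold of 5.65 and 1 AAV-GFP region covering 19.4%. Mir124a-2, Mir199b and the pair Mir143 and Mir145a were also overlapped, as were Mir6769b, Mir1983, Mir6405, Mir6365 and Mir344d-1. The weakest of the 18, at Mir7215, had −log10 p of 3.48.

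A few regions lay in repeated DNA. Of the 5991, 62 were over 90% soft-masked (1.03%, against 0.967% of the AAV-Cre-only class). A cluster of 41 annotated 5S rRNA genes, chr8:123538786-123622046, held 6 of the regions, 488 to 551 bp wide and 59.9% to 87.3% masked. Their AAV-GFP partners had −log10 p from 23.5 to 77.5, and the highest was the strongest call among all partners. The p-values of the lists are not on a common scale. These copies are alike, so their values are uncertain.

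At the limits of the choice, the regions just inside 15 kb lay 15009 bp from Soat1, 15028 bp from Lin28b and 15031 bp from Add3, and those just outside lay at 14939, 14937 and 14936 bp. The Lin28b region, which overlaps the annotated extent of that gene, had −log10 p of 50.2 and 10.3 CpGs per 100 bases, and the Add3 region had 3.48 and 0.984. The widest regions inside 5000 bp were 4999 bp near Epcam, 4997 bp in Ebf3 and 4987 bp in Cux2, and the narrowest left out were 5000, 5001 and 5006 bp. The least covered region, 3099 bp near Flrt3, shared 0.0968% of its bases with an AAV-GFP call.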

How the data were processed

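H3K27-me3 ChIP-seq was done on livers of 2 mice per virus group with matched input. The authors aligned reads to mm10 with BWA 0.7.13, filtered them with SAMtools 1.2 and Picard 1.126, pooled both replicates of a group and called peaks with MACS2 against pooled input in the AQUAS pipeline, keeping peaks that overlapped between replicates. The deposited lists give, per peak, a display score (not used here), the fold enrichment ratio over local background, and −log10 p and q-values from the authors' caller; a peak count or p depends on the depth of its list, which is not given in the sources used here.

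Start sites were those of basic protein-coding transcripts in GENCODE release M21 (41451 sites of 21864 genes); intron, exon and between-gene positions used the same transcripts. Sequence was read from RefSeq GRCm38.p6, which shares mm10 coordinates. Peaks were ranked within their own list by p. Analyses used Python 3.11.15, pandas 2.3.3, numpy 2.4.6, scipy 1.17.1 and pysam 0.24.0, and the interval and sequence functions were tested on simulated data. Motifs were searched on both strands in the summit with 150 bases on each side.

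The members and gene lists were chosen with earlier results of these data known; the lists of genes higher in female or male liver were added after values were seen. Named regions are the 10 with the highest AAV-Cre −log10 p, the 5 farthest from a start site, the 3 richest in CpG, those over a miRNA gene, those at the limits of the choice, the closest genes with most regions and the genes of the autophagy, fatty acid and hepatocyte lists; the 5S rRNA cluster, the Flrt3 region, the chains and the examples from other lists were chosen after their values were seen. No comparison between regions or groups was tested. Alternatives changed the q-value, the overlap, the distance, the width, merging and the start sites. The values of some listed genes are not reported here.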

Additional observations from a re-analysis of the deposited data

How the results depend on the processing

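No paired analysis was possible because each list pools both replicates and holds no values per replicate, and for the same reason no replicate could be left out. The number of regions fell from 5991 to 2571 and 1736 with q-values of 0.05 and 0.01 in both lists, 637 with 50% coverage required, 3144 beyond 50 kb, 3084 after merging peaks within 1 kb, 3371 with start sites of all annotated genes and 2052 with AAV-GFP peaks of 300 bp or more; it stayed within 1.5 times the main count under the other 7 alternatives. With the start sites of all transcripts of protein-coding genes, 5334 regions remained. The share between genes was 71.9%, 74.7% and 76.1% at 10, 25 and 50 kb, 74.9% with 50% coverage and 78.3% with all transcripts of protein-coding genes. The share with a CpG-island-like window moved past its interval in 12 of 15 alternatives. It was 39.8% and 44.4% with the q-value limits, 31.6% with as many top AAV-Cre peaks as AAV-GFP has, 35.9% with 50% coverage, 24.9% beyond 50 kb, 24.6% under 3000 bp, 30.5% with no width limit, 40% after merging, 26.6% with all transcripts, 23.9% with all genes, 42.3% with AAV-GFP peaks of 300 bp or more and 6.19% with the stricter window. The median AAV-GFP coverage was 21.9% and 22.2% with the q-value limits, 60.3% with 50% coverage required, 17.4% after merging and 30.1% with AAV-GFP peaks of 300 bp or more. The cause of these shifts was not tested. The homeobox share ranged from 2.58% to 6.22%, and the share at genes higher in female liver, whose alternatives were chosen after seeing the data, from 0.682% to 3.92%.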
